A study of Homo sapiens with 6 samples.

Results

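HSPG2 and 8 other genes of the proteoglycan matrix (AGRN, LAMC1, NID1, SDC1, SDC3, SDC4, SRGN and VCAN) were followed across control and ARID1A-deficient NB4 cells, out of 52992 genes with a matched transcript in the tables. HSPG2 was selected because its level differed between the control and both ARID1A sgRNAs, and the others because they encode proteoglycan core proteins or partners of perlecan in the basement membrane. The values of HSPG2 in those contrasts are therefore a description, without a test. All 9 genes were chosen with earlier results of these data known, which also limits the p values of the others. Of the 9 genes, 7 passed the filter on low counts, and VCAN and NID1 did not.

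NB4 is a human acute promyelocytic leukemia line. All 6 samples carried Cas9 and an inducible sgRNA vector and received 1 µg/ml doxycycline for 7 days. RNA was not taken at the end of this treatment but after a further culture period without doxycycline, per the study's methods. The control sgRNA (LacZ, genotype label WT, n = 2) targets a bacterial gene, whereas sg1 (n = 2) and sg5 (n = 2) target ARID1A, whose protein belongs to the SWI/SNF chromatin remodelers, and carry the genotype label ARID1A-deficient. Per the study's methods, transduced cells were sorted for both fluorescent reporters, so each group is a mixed population of 1 line rather than a clone. The labels do not say whether the replicates E1 and E2 were separate cultures, so the spread between them may be technical.

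Perlecan, encoded by HSPG2, is a large secreted core protein that carries heparan sulfate chains and binds laminin, nidogen and type IV collagen in basement membranes. Its chains hold heparin-binding growth factors near the cell surface, where the transmembrane syndecans and the secreted agrin carry chains of the same kind. Myeloid cells are best known for another proteoglycan, serglycin (SRGN), which is packed with proteases into their granules.

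The tables held 46131178 to 54843745 estimated counts per sample. ARID1A mRNA, the targeted transcript, was 155.0 and 190.7 CPM (counts scaled to a common library size) in LacZ, 211.0 and 191.1 CPM in sg1, and 123.7 and 145.1 CPM in sg5. Both sg1 samples thus lay above the LacZ samples and both sg5 samples below them. The log2 difference was 0.22 for sg1 (edgeR adjusted p = 0.993) and -0.36 for sg5 (edgeR adjusted p = 0.661), and small insertions or deletions need not lower an mRNA, so these values do not check the genotype labels. The study itself reports the knockout at the protein level, by an immunoblot of doxycycline-treated NB4 cells with ARID1A sgRNA. In a principal component analysis of all tested genes, the library labelled sg1 replicate 1 and the library labelled sg5 replicate 2 stood apart from the other 4 samples, with scores of 34.3 and 46.8 against -30.3 to -11.3 on the first component (34.4% of the variance). The labels name no batch for these samples. Values without them are given for HSPG2, AGRN, SRGN, COL4A2, HS6ST1 and VEGFA.

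The levels of the 9 genes spanned several orders of magnitude. On the TPM scale, in which counts are divided by transcript length so that levels of different genes can be compared, SRGN had a mean of 1974.2 ± 257.4 TPM in LacZ (SD, n = 2). LAMC1 (32.9 ± 0.382 TPM) and AGRN (30.5 ± 4.75 TPM) came next and did not differ beyond their spread. HSPG2 followed with 11.5 ± 0.422 TPM and SDC4 with 7.22 ± 2.31 TPM. Lower still were SDC1 with 0.901 ± 0.157 TPM and SDC3 with 0.0641 ± 0.00405 TPM. VCAN (0.0267 ± 0.0173 TPM) and NID1 (0.0210 ± 0.0232 TPM) were near 0 and could not be ordered. By mean TPM over all samples, SRGN stood at the 99.7th percentile of the tested genes, LAMC1 at 76.4, AGRN at 72.4, HSPG2 at 51.3 and SDC4 at 50.9. The TPM levels of HSPG2, AGRN and LAMC1 include short transcripts annotated as non-coding. Counted over protein-coding transcripts alone, their means in LacZ were 6.68, 14.9 and 19.8 TPM, which places HSPG2 below SDC4, so the order of these genes depends on the transcripts counted.

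HSPG2 (ENSG00000142798) lies on the minus strand of chromosome 1 at chr1:21822245-21937297 in the GRCh38 annotation of GENCODE 29, within the short arm that also holds ARID1A, 4.76 Mb away. Its upstream sequence is shown here beside that of LAMC1, the laminin γ1 gene, because perlecan and laminin are partners in the same matrix while the mRNA of HSPG2 and not that of LAMC1 differed between the groups. Both are the 250 bases before the start of transcription in RefSeq on GRCh38.p14, written 5′ to 3′ in the direction of the gene, with GC boxes in capitals, that is GGGCGG or its reverse complement CCGCCC as read in the strand shown.
HSPG2, chr1:21937311-21937560, minus strand: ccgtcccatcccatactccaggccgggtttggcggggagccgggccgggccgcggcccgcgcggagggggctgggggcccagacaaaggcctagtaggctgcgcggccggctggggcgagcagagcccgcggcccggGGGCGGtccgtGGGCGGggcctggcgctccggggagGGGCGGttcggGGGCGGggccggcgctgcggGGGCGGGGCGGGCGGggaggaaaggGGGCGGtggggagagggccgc
LAMC1, chr1:183023170-183023419, plus strand: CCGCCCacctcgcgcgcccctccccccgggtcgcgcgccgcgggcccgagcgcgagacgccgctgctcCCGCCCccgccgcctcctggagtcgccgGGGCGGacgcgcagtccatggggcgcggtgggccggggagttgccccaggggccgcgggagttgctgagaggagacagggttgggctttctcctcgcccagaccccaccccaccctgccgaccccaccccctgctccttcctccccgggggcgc
The window of HSPG2 held 8 matches to the GC box, some of which overlap each other, and that of LAMC1 held 3. The count was not particular to HSPG2, since the window of SDC4 also held 8, that of SDC3 held 5, and the others held 1 each. At least 1 GC box was found in 42.6% of the 35116 RefSeq windows of the same length, and 8 or more in 0.584%. The G and C content was 82.8% for HSPG2, 79.6% for LAMC1, 83.6% for SDC3 and 73.6% for SDC4, against a median of 58.0% over all windows. Neither window held AGATAA or its complement (a GATA motif, present in 9.17% of windows), TGANTCA (an AP-1 motif, 6.57%) or TATAAA or its complement (a TATA box, 10.7%), with both strands searched, so no GC box overlapped another of these motifs. These matches describe the letters of the windows, and windows for 7 of the 9 genes were found in the RefSeq table, AGRN and SRGN being the others.

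HSPG2 was lower in all 4 ARID1A-deficient samples than in both LacZ samples. With LacZ it had 4484 and 3927 estimated counts, 2311 and 1832 with sg1 and 1688 and 1783 with sg5. After scaling for library size this was 85.1 and 77.9 CPM in LacZ, 45.7 and 41.2 CPM in sg1, and 36.0 and 35.3 CPM in sg5. The 3 groups did not overlap, with LacZ highest and sg5 lowest. The log2 difference from LacZ was -0.91 (SE 0.12) for sg1 and -1.19 (SE 0.12) for sg5, which is 0.533 and 0.437 times the control level. With sg1 and sg5 joined, as in the genotype label, the difference was -1.05 (SE 0.10). Both comparisons share the LacZ samples. On the TPM scale HSPG2 was 11.8 and 11.2 with LacZ, 5.98 and 5.88 with sg1 and 4.82 and 4.23 with sg5. Without the 2 samples that stood apart on the first component, the log2 differences were -0.98, -1.18 and -1.08 for sg1, sg5 and both joined. There sg1 and sg5 have 1 sample each, which is assumed to vary like the LacZ pair, the only group left with a spread. In bulk RNA, fewer cells that express HSPG2 and less HSPG2 mRNA per cell cannot be told apart.

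The direct comparison of sg1 with sg5 was not used to select HSPG2. Its level was higher in both sg1 samples than in both sg5 samples, with a log2 difference of 0.29 (SE 0.12, 95% confidence interval 0.02 to 0.55, edgeR adjusted p = 1.0). The difference between the sgRNAs therefore did not pass the threshold of a false discovery rate (FDR) of 0.1. Of the 7 tested genes, 0 passed in this comparison by edgeR, where 0.0054% of all genes were called, and 0 by DESeq2, where 0.027% were called. HSPG2 was the 1 gene of the 7 with an unadjusted edgeR p under 0.05, against 1.38% of all genes. Both sg1 samples lay above both sg5 samples for HSPG2, AGRN and LAMC1, and for 11.7% of all tested genes.

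**Figure D1:**
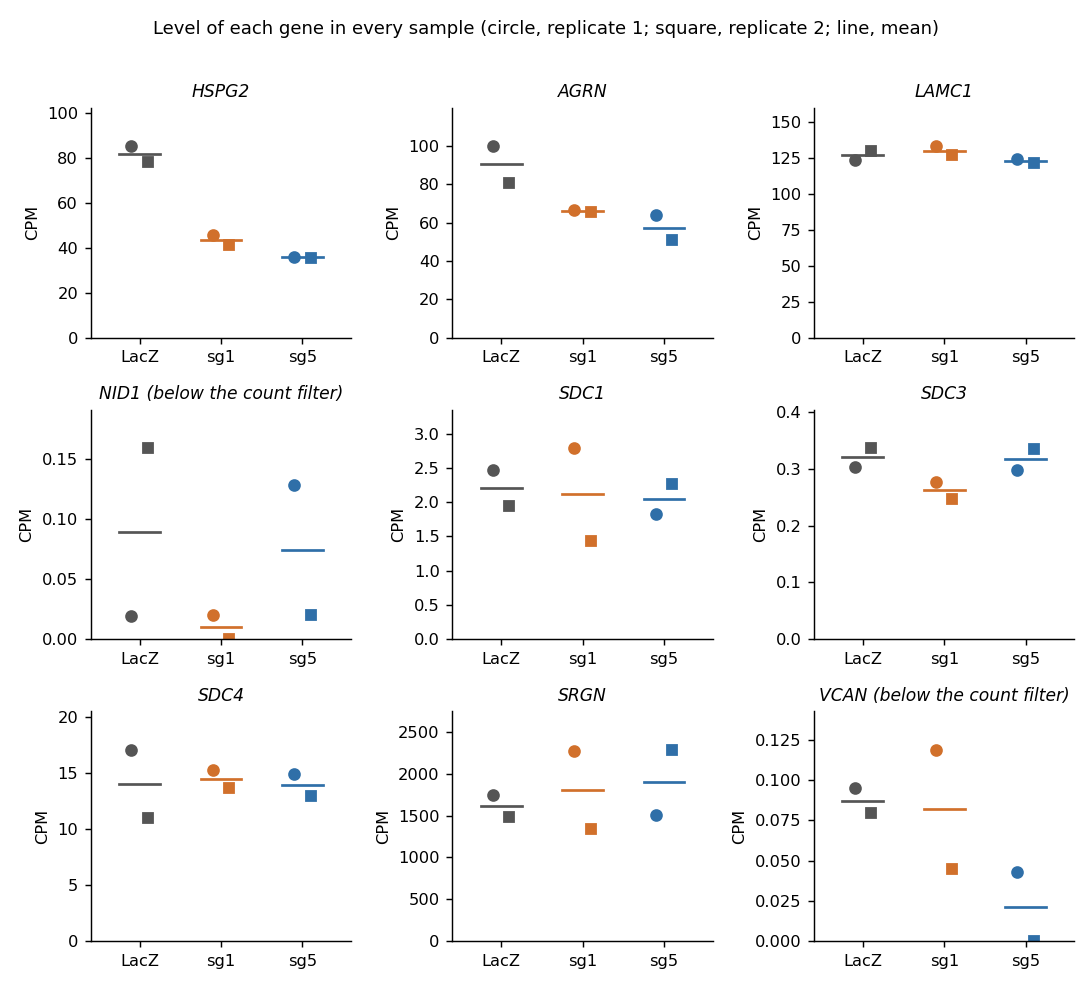
Level of each of the 9 genes in CPM (vertical axis, from 0) in the LacZ, sg1 and sg5 samples, with a circle for replicate 1, a square for replicate 2 and a line for the group mean. HSPG2 and AGRN lie lower in all 4 ARID1A-deficient samples than in LacZ, LAMC1 stays between 121.1 and 132.9 CPM, and VCAN and NID1 are close to 0.

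Most of the HSPG2 counts came from its full-length coding transcript. HSPG2-203, which spans 14327 nt, held 91.4% to 95% of the counts in every sample, with 4157.1 and 3643.2 estimated counts with LacZ, 2196.1 and 1700.9 with sg1 and 1554.2 and 1629.5 with sg5. After division by the library totals, the log2 ratio of this transcript's group means was -0.93 for sg1 and -1.25 for sg5. HSPG2-211, a retained-intron transcript from the 3′ end of the gene, held 3.60% to 7.96%. It had 273.0 and 224.5 counts with LacZ, 83.1 and 104.7 with sg1 and 114.7 and 142.0 with sg5, so the 2 most abundant transcripts were both lower with each sgRNA. The other 11 annotated transcripts held 0 to 1.07% of the counts each. The 3′ end of HSPG2 overlaps LDLRAD2 on the opposite strand (chr1:21812265-21825221). No strand setting for the quantification is given in the sources used here, and reads from the overlap of the 2 genes cannot be told apart without one. LDLRAD2 was assigned 75 and 77 counts with LacZ, 45 and 48 with sg1 and 20 and 20 with sg5. The part of HSPG2 reads in these counts, and the reverse, was not tested.

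Of the 10 other tested genes within 500 kb, 0 passed FDR 0.1 in either sgRNA comparison by edgeR, while DESeq2 called 0 for sg1 and 1, LDLRAD2, for sg5, and 1 and 2 had an unadjusted edgeR p under 0.05. Their median log2 difference was -0.09 for sg1 and -0.14 for sg5. ECE1, which encodes the endothelin-converting enzyme, differed by 0.11 and 0.03, and the deubiquitinase gene USP48 by -0.11 and -0.06. The lowest values besides HSPG2 were those of LDLRAD2 (-0.58 and -1.84) and of the Rap1 GTPase-activating gene RAP1GAP (-0.85 and -0.83, 26 to 83 counts). Between the start of chromosome 1 and ARID1A, 352 tested genes other than HSPG2 and AGRN had a median log2 difference of -0.06 for sg1 and -0.10 for sg5, against 0.01 for both on the rest of the chromosome and 0.00 and -0.01 over all tested genes. In that stretch edgeR called 0 of them in either comparison and DESeq2 called 0 for sg1 and 2 for sg5, while 10 were lower and 3 higher at an unadjusted p under 0.05 for sg1, and 26 and 7 for sg5. On the rest of the chromosome these counts were 45 and 32 for sg1 and 68 and 57 for sg5 among 1483 genes, and over all 18514 tested genes 425 and 344 for sg1 and 836 and 547 for sg5. HSPG2 and AGRN (25.64 Mb from ARID1A) lie within it and SDC3 lies 4.09 Mb on the other side of ARID1A, and the part of this position in their values was not tested.

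**Figure D2:**
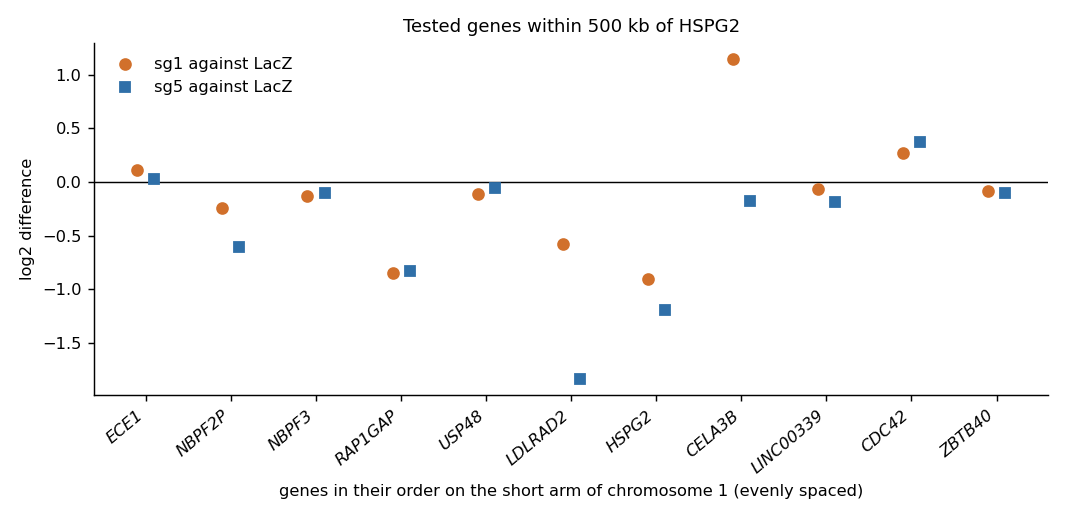
Log2 difference from LacZ (vertical axis) for sg1 (circles) and sg5 (squares) of the 11 tested genes within 500 kb of HSPG2, in chromosome order and evenly spaced. HSPG2 lies at -0.91 and -1.19, whereas ECE1, NBPF3, USP48, LINC00339 and ZBTB40 lie close to 0 with both sgRNAs.

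AGRN (ENSG00000188157, chr1:1020123-1056118, plus strand) encodes agrin, the other large secreted heparan sulfate proteoglycan of basement membranes. It had 99.8 and 80.9 CPM in LacZ, 66.7 and 65.4 CPM in sg1, and 63.9 and 50.7 CPM in sg5. All 4 ARID1A-deficient samples were below both LacZ samples, a pattern found in 10.4% of all tested genes. The log2 difference was -0.45 (SE 0.15, 95% confidence interval -0.79 to -0.11, edgeR adjusted p = 0.931) for sg1 and -0.66 (SE 0.15, -1.0 to -0.32, edgeR adjusted p = 0.365) for sg5. Joined, it was -0.55 (SE 0.13, edgeR adjusted p = 0.281). AGRN did not pass in these fits, whereas DESeq2, the tool the study used, called it for sg5 (log2 difference -0.65, adjusted p = 0.0294) and for both joined (-0.55, adjusted p = 0.0248). Without the 2 samples that stood apart, the log2 differences were -0.47, -0.50 and -0.48 for sg1, sg5 and both joined. Between sg1 and sg5 the log2 difference was 0.20 (95% confidence interval -0.14 to 0.54). The coding transcript AGRN-201 held 81.9% to 88.4% of the AGRN counts.

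LAMC1 (ENSG00000135862, chr1:183023460-183145592, plus strand), the γ1 chain found in most laminins, was close to constant. Its level was 123.6 and 129.5 CPM in LacZ, 132.9 and 126.9 CPM in sg1, and 124.4 and 121.1 CPM in sg5. The LacZ values fell within the range of the other 4 samples. The log2 difference was 0.04 (95% confidence interval -0.21 to 0.28) for sg1 and -0.04 (-0.29 to 0.20) for sg5, so a change as large as that of HSPG2 lay outside both intervals. The antisense gene LAMC1-AS1 lies within LAMC1 and had 13 to 22 counts per sample. NID1 (ENSG00000116962, chr1:235975830-236065162, minus strand) encodes nidogen, which links laminin to type IV collagen. It had 1 and 8 counts with LacZ, 1 and 0 with sg1 and 6 and 1 with sg5, and no difference was detectable at this depth.

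The 3 syndecans, transmembrane proteoglycans that couple heparan sulfate to the cytoskeleton, were not called in any comparison by edgeR or DESeq2, and 0 of them had an unadjusted edgeR p under 0.05. DESeq2 gave no adjusted p for SDC3 in the comparisons with LacZ. SDC4 (ENSG00000124145, chr20:45325288-45348424, minus strand) was the most abundant, with 17.1 and 11.0 CPM in LacZ, 15.3 and 13.7 CPM in sg1, and 14.9 and 13.0 CPM in sg5. Its 2 LacZ samples were the highest and the lowest of the 6, and the log2 difference was 0.04 (95% confidence interval -0.45 to 0.53) for sg1 and -0.01 (-0.50 to 0.48) for sg5. SDC1 (ENSG00000115884, chr2:20200797-20225433, minus strand) had 130 and 98 counts with LacZ, 141 and 64 with sg1 and 86 and 115 with sg5, with log2 differences of -0.06 (-0.85 to 0.74) and -0.10 (-0.90 to 0.69). SDC3 (ENSG00000162512, chr1:30869467-30908761, minus strand) had 11 to 17 counts per sample. Its sg1 values of 0.277 and 0.248 CPM lay below the LacZ values of 0.304 and 0.337 CPM, as in 17.4% of all tested genes, whereas sg5 overlapped LacZ. The log2 differences were -0.28 and -0.01, and the intervals of -1.36 to 0.79 and -1.07 to 1.04 include a change of the size of HSPG2.

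Serglycin and versican are chondroitin sulfate proteoglycans, of the granule and of the loose extracellular matrix, respectively. SRGN (ENSG00000122862, chr10:69088106-69104811, plus strand) had 1749.7 and 1479.7 CPM in LacZ, 2274.1 and 1340.9 CPM in sg1, and 1504.1 and 2289.7 CPM in sg5. Its highest values were in the 2 samples that stood apart on the first component, and the replicates of sg1 and of sg5 differed more than the groups did. The log2 difference was 0.16 (95% confidence interval -0.48 to 0.81) for sg1 and 0.23 (-0.42 to 0.88) for sg5, and it was -0.27 and -0.10 without those samples. VCAN (ENSG00000038427, chr5:83471465-83582303, plus strand) had 5 and 4 counts with LacZ, 6 and 2 with sg1 and 2 and 0 with sg5, too few to compare.

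Among the 7 tested genes, edgeR thus called 1 (HSPG2) for sg1, where 0.0378% of the 18514 tested genes were called, 1 for sg5 (0.0972% of all genes) and 1 with both joined (0.167%). Since HSPG2 was selected on these contrasts, nothing is read from these shares. DESeq2 called HSPG2 alone for sg1 (0.742% of all genes) and HSPG2 and AGRN for sg5 (1.35%) and for both joined (1.81%). At an unadjusted edgeR p under 0.05, HSPG2 and AGRN were the 2 genes in each comparison with LacZ, beside 4.15% of all genes for sg1, 7.47% for sg5 and 7.21% for both joined. AGRN was also chosen with earlier results of these data known, so nothing is read from these shares either. The median log2 difference of the 7 was -0.06 for sg1 and -0.04 for sg5.

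**Figure D3:**
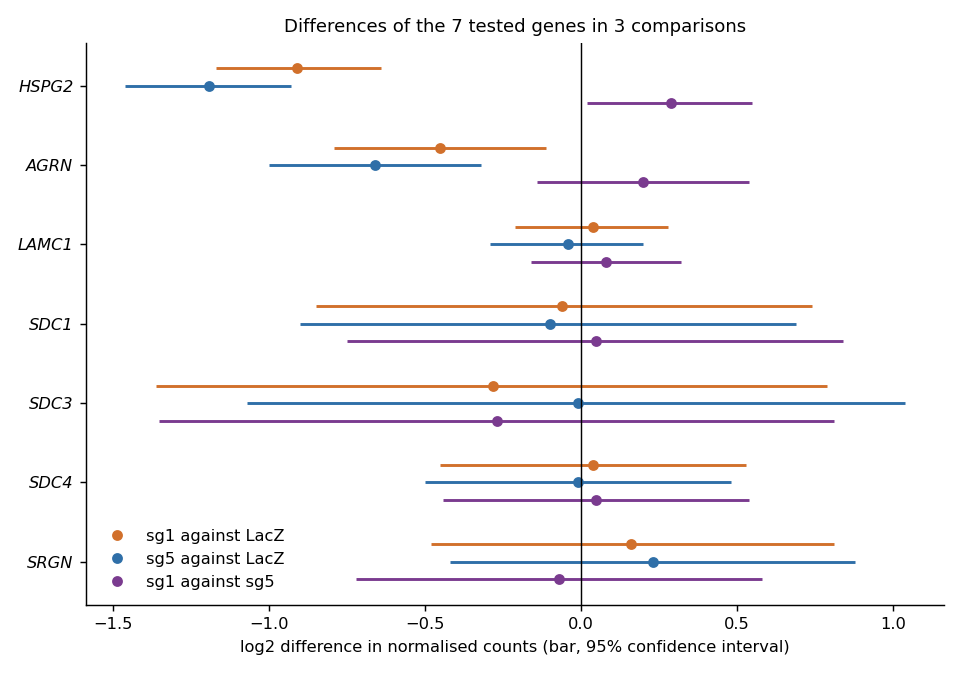
Log2 difference (horizontal axis) of the 7 tested genes for sg1 against LacZ, sg5 against LacZ and sg1 against sg5, with points for the estimate and bars for its 95% confidence interval from the edgeR fit. HSPG2 and AGRN lie to the left of 0 with both sgRNAs, LAMC1 has narrow intervals around 0, and SDC1, SDC3 and SRGN have wide ones.

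Whether the lower level of HSPG2 was shared was examined in 9 lists of genes for proteoglycan cores, basement membrane proteins, glycosaminoglycan enzymes, matrix breakdown, receptors and ligands. These were chosen with earlier results of these data known and hold 182 genes, of which 123 were tested. PRG2, whose symbol stands for a proteoglycan, is not in them. It is given below with the eosinophil markers, where edgeR called it lower with both sgRNAs. Of the 123, HSPG2 was the 1 gene that edgeR called for sg1 and for sg5, beside 0.0378% and 0.0972% of all tested genes. With both joined, the called list genes were HSPG2, MMP2 and ITGA7, all lower, beside 0.167% of all tested genes. Without either LacZ sample the calls of MMP2 and ITGA7 were lost, with edgeR adjusted p values of 0.756 and 0.735 for MMP2 and of 0.78 and 0.434 for ITGA7. Apart from the 9 genes followed here, the lists hold 116 tested genes. Their median log2 difference was -0.04 for sg1, -0.05 for sg5 and -0.08 joined, against 0.00, -0.01 and -0.01 over all tested genes. At an unadjusted edgeR p under 0.05, 8 of the 116 were lower and 5 higher for sg1, where 425 and 344 of all 18514 genes were. For sg5 10 were lower and 5 higher, beside 836 and 547 of all genes. All 4 ARID1A-deficient samples lay below both LacZ samples for 24 of the 116 (20.7%) and above them for 12 (10.3%), while these shares were 10.4% and 9.72% over all tested genes. DESeq2 called 5 of the 116 for sg1 and 5 for sg5, in both cases SPARC, MMP2, MMP9, ITGA3 and ITGA7, all lower. Over all genes it called 0.742% for sg1 and 1.35% for sg5. Joined, where it called 1.81% of all genes, it also called MMP14 as lower and COL4A2 and XYLT1 as higher. ITGA3, MMP14 and XYLT1 are named here after their values were seen.

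Of the heparan sulfate proteoglycan cores, 11 of 16 were tested and HSPG2 was called. The hyaluronan receptor CD44, which can carry heparan sulfate in some splice forms, differed by 0.13 and 0.14 (log2) for sg1 and sg5. SDC2, the syndecan of many mesenchymal cells, had 11.6 and 10.9 CPM in LacZ, 19.5 and 14.0 CPM in sg1, and 16.3 and 16.1 CPM in sg5. All 4 of its ARID1A-deficient values were above both LacZ values, opposite to HSPG2, with log2 differences of 0.58 and 0.53 that did not pass (edgeR adjusted p = 0.628 for sg5). Of the chondroitin and dermatan sulfate and small leucine-rich cores, 9 of 23 were tested, 0 were called by edgeR or DESeq2 in any comparison and 0 had an unadjusted p under 0.05. APLP2, an amyloid precursor-like protein, differed by 0.13 with either sgRNA and THBD (thrombomodulin) by 0.21 and 0.28.

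Of the basement membrane genes, 20 of 34 were tested and HSPG2, selected for its difference, was called. With HSPG2 and AGRN included, their median log2 difference was -0.12 for sg1 and -0.24 for sg5, against 0.00 and -0.01 over all tested genes. SPARC, a collagen-binding matricellular protein, had 76.1 and 74.6 CPM in LacZ, 47.0 and 33.7 CPM in sg1, and 39.2 and 45.9 CPM in sg5. Its LacZ and ARID1A-deficient values did not overlap, and the log2 differences of -0.90 and -0.82 joined to -0.86, just above the threshold (edgeR adjusted p = 0.103). COL4A2, the α2 chain of type IV collagen, had 53.0 and 51.0 CPM in LacZ, 93.8 and 67.2 CPM in sg1, and 71.0 and 87.1 CPM in sg5. The log2 differences were 0.63 and 0.60 (edgeR adjusted p = 0.322 joined), and the highest values were in the 2 samples that stood apart. Without them the log2 differences were 0.37 and 0.45. COL18A1, the core of collagen XVIII, which carries heparan sulfate, differed by -0.24 and -0.47 (edgeR adjusted p = 0.744 joined) with overlapping values.

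The enzymes that build the chains showed no gene called by edgeR in any comparison, nor by DESeq2 for sg1 or sg5 alone. All 13 of the linkage region and sulfate donor genes, 12 of 23 heparan sulfate genes and 12 of 16 chondroitin and dermatan sulfate genes were tested, with medians between -0.05 and 0.06. The sulfate donor transporter SLC35B2 differed by 0.03 and 0.07 for sg1 and sg5, and the polymerase subunit EXT2 by -0.03 and 0.05. HS6ST1, a heparan sulfate 6-O-sulfotransferase, had 112.9 and 107.3 CPM in LacZ, 161.8 and 131.5 CPM in sg1, and 135.2 and 147.6 CPM in sg5, with log2 differences of 0.41 and 0.36 (edgeR adjusted p = 0.435 joined). Its highest values were in the 2 samples that stood apart, and without them the differences were 0.26 and 0.30. The N-sulfotransferase NDST2 differed by -0.15 and -0.24, and the 2-O-sulfotransferase HS2ST1 by 0.06 and 0.20. EXT1, the partner of EXT2, which is named here after its values were seen, had 1 to 5 counts per sample in these tables. The chondroitin genes CHST11 and CHSY1, a 4-O-sulfotransferase and a chain synthase, differed by 0.18 and 0.11 for sg1 and by 0.09 and 0.05 for sg5.

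Genes of matrix breakdown were tested for 24 of 27. MMP2, gelatinase A, which cleaves type IV collagen, had 24.9 and 25 CPM in LacZ, 14.8 and 10.8 CPM in sg1, and 13.4 and 13.4 CPM in sg5. The groups with and without ARID1A sgRNA did not overlap. The log2 difference was -0.96 (edgeR adjusted p = 0.26) for sg1, -0.90 (0.266) for sg5 and -0.93 (SE 0.14, adjusted p = 0.0961) joined. MMP9, gelatinase B of neutrophil granules, had 453.7 and 360.2 CPM in LacZ, 283.3 and 182.5 CPM in sg1, and 194.2 and 153.4 CPM in sg5, with log2 differences of -0.80 and -1.23 that did not pass (edgeR adjusted p = 0.141 joined). The lysosomal genes HEXA and CTSB differed by -0.04 and 0.22 for sg1 and by -0.05 and 0.19 for sg5, and the sheddase ADAM10 by -0.06 and 0.03.

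**Figure D4:**
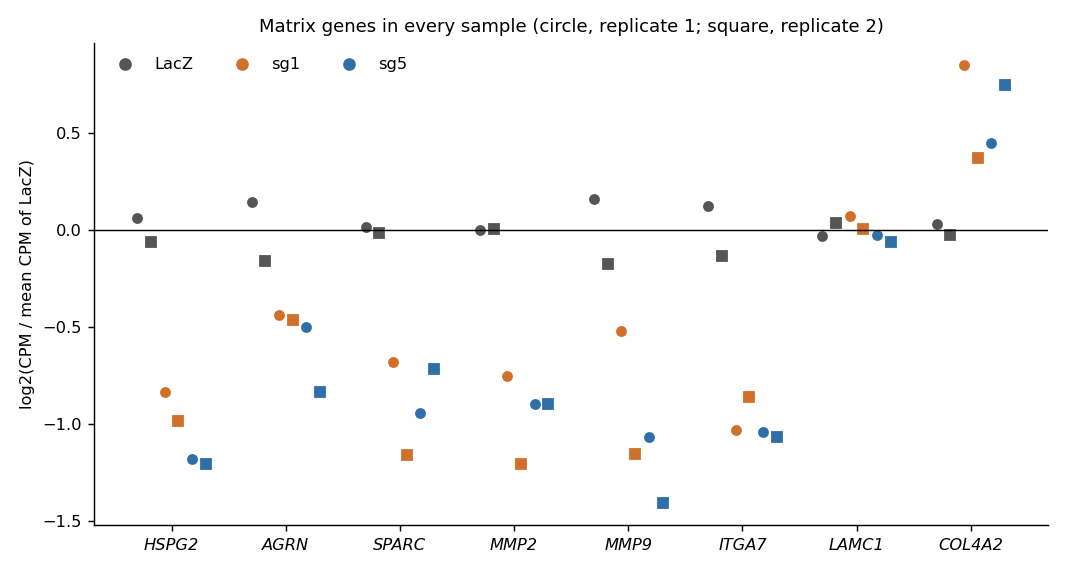
Level of 8 matrix genes in every sample, as log2 of CPM over the mean CPM of LacZ (vertical axis), coloured by group, with circles for replicate 1 and squares for replicate 2. HSPG2, AGRN, SPARC, MMP2, MMP9 and ITGA7 lie below 0 in all 4 ARID1A-deficient samples, LAMC1 stays near 0 and COL4A2 lies above it.

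Among matrix receptors, 16 of 18 were tested. ITGA7, the laminin-binding integrin α7 chain, had 15.2 and 12.7 CPM in LacZ, 6.82 and 7.67 CPM in sg1, and 6.78 and 6.65 CPM in sg5. All 4 ARID1A-deficient samples were below LacZ, with a log2 difference of -0.94 (edgeR adjusted p = 0.302) for sg1, -1.05 (0.177) for sg5 and -1.0 (adjusted p = 0.0961) joined. The shared β1 integrin chain ITGB1 differed by -0.11 and -0.03, and DAG1, the dystroglycan that binds perlecan, agrin and laminin through its sugars, by 0.19 and 0.20. Of the heparin-binding ligands, 9 of 15 were tested, 0 passed by edgeR or DESeq2 and 0 had an unadjusted p under 0.05. VEGFA, whose longer forms bind heparan sulfate, had 244.6 and 260.6 CPM in LacZ, 128.3 and 228.2 CPM in sg1, and 193.7 and 90.9 CPM in sg5, lowest in the 2 samples that stood apart. The log2 differences were -0.50 and -0.83, and without those samples -0.15 and -0.38. TGFB1 differed by -0.09 and -0.24.

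**Figure D5:**
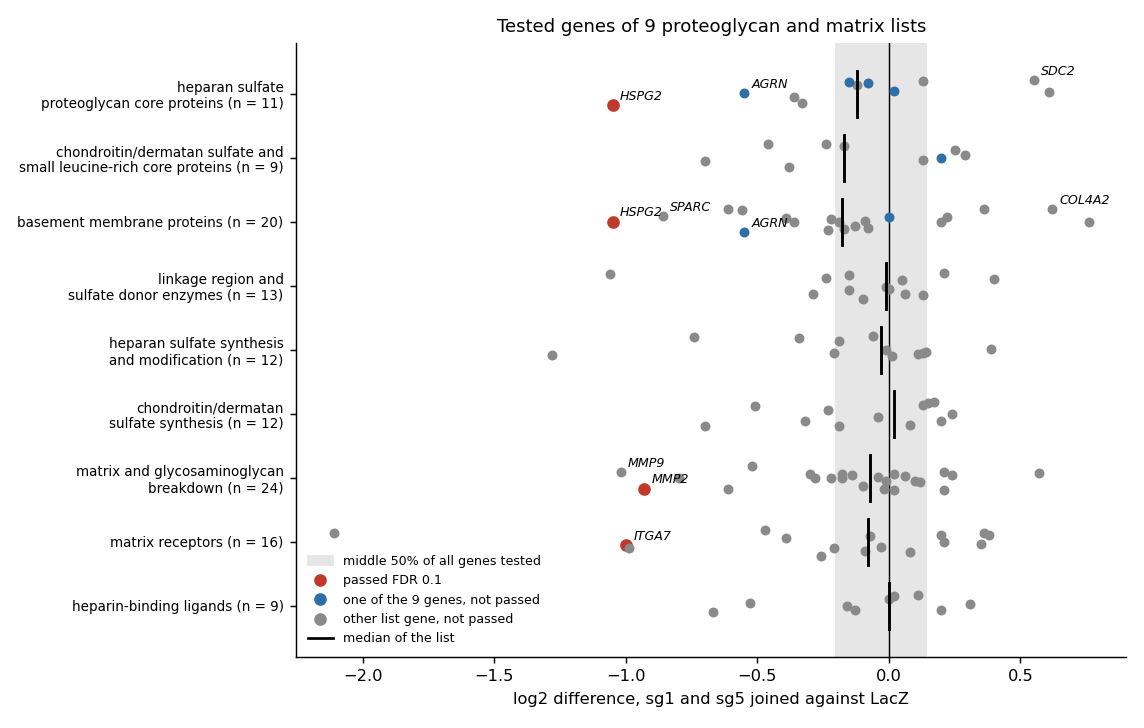
Log2 difference of sg1 and sg5 joined against LacZ (horizontal axis) for each tested gene of the 9 lists, with red points for genes past FDR 0.1, blue points for the other genes followed here, a black bar for the median of the list and a grey band for the middle 50% of all tested genes (-0.20 to 0.14). The medians of the lists, HSPG2 included, lie between -0.18 and 0.02. The red points are HSPG2 (drawn in the 2 lists it belongs to), MMP2 and ITGA7.

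Across the 6 samples, the genes with the profile most like that of HSPG2 were LIN28B, MAP4K2, PAOX, SH2D2A and PLOD3, with Pearson r of 0.998, 0.995, 0.989, 0.988 and 0.988 on log2 CPM among 13164 genes with a mean of at least 1 CPM. These samples fall into 3 groups and r is high for any gene with the same steps between them. It was at least 0.90 for 172 genes. LIN28B, an RNA-binding protein that blocks let-7 maturation, had 2.43 and 2.18 CPM in LacZ, 0.989 and 0.855 CPM in sg1, and 0.703 and 0.613 CPM in sg5. PLOD3 encodes a collagen lysyl hydroxylase and had 125.6 and 123.4 CPM in LacZ against 94.3 to 104.3 CPM in the other samples. Of the matrix genes, r with HSPG2 was 0.97 for ITGA7, 0.95 for MMP9, 0.93 for MMP2, 0.92 for AGRN and 0.91 for SPARC, and 0.62 for COL18A1, 0.25 for SDC1, 0.21 for LAMC1, 0.00 for SDC4 and -0.20 for SRGN. It was -0.79 for SDC2 and -0.80 for COL4A2.

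Markers of the labelled cell type were abundant, with a summed level of 14023.5 to 17709.0 CPM for 6 promyelocyte genes, although ELANE had 1 to 9 counts. Most of this sum was MPO, with 13430.6 to 16825.1 CPM. The 5 tested promyelocyte genes all had log2 differences below 0, with a median of -0.17 for sg1 and -0.36 for sg5. EdgeR called 0 of them, 2 had an unadjusted p under 0.05 with each sgRNA, and DESeq2 called 0 for sg1 and the granule protease genes AZU1 and CTSG as lower for sg5 (adjusted p = 0.0318 and 0.0699) and joined (0.0337 and 0.0178). Of 8 fibroblast markers, 5 had under 10 counts in every sample, LUM and THY1 were at 0, and the sum was 1.6 to 3.63 CPM. Of 6 endothelial markers, 3 had under 10 counts, KDR was at 0, and the sum was 1.07 to 2.79 CPM. Markers of other myeloid cells were measured as well. The 8 mast cell and basophil markers summed to 55.7 and 56.2 CPM in LacZ and 29.4 to 35.2 CPM in the ARID1A-deficient samples, with FCER1A at 0. For 6 of 6 tested genes all 4 ARID1A-deficient samples lay below both LacZ samples, against 10.4% of all tested genes. An unadjusted edgeR p under 0.05 was found for 5 with sg1 and 6 with sg5, beside 4.15% and 7.47% of all genes. EdgeR called HDC with both sgRNAs (log2 difference -1.22 and -1.30). DESeq2 also called TPSAB1 as lower for sg5 (adjusted p = 0.0611) and joined (0.0277). The 10 megakaryocyte markers summed to 19.4 and 14.7 CPM in LacZ and 5.40 to 6.82 CPM in the others. That sum followed ITGA2B, called at -2.11 and -2.10, while 3 other tested markers were not called and GP9 and PF4 were at 0. The 8 eosinophil markers summed to 306.4 and 280.9 CPM in LacZ and 303.0 to 437.4 CPM in the others. The highest sums, 437.4 and 417.4 CPM, were in the 2 samples that stood apart on the first component. RNASE2 was higher than in LacZ (0.68 and 0.67) and highest in the same samples. EdgeR did not call it, whereas DESeq2 did with both joined (adjusted p = 0.0472). PRG2 (called by edgeR at -1.53 and -1.58) and EPX (-1.65, not called by edgeR, and -2.06, called) were lower, and DESeq2 called both with each sgRNA. Without LacZ replicate 2, the calls of HDC, ITGA2B and PRG2 with both sgRNAs and of EPX with sg5 were lost (edgeR adjusted p between 0.113 and 0.673). Without LacZ replicate 1 that of PRG2 with sg5 was kept and the others were lost (0.162 to 0.665). The calls of HDC for sg1 without either sg1 sample (0.225 and 0.17), of ITGA2B for sg1 without sg1 replicate 1 (0.128) and of EPX for sg5 without sg5 replicate 2 (0.103) were lost too. The part of these marker genes in the HSPG2 values was not tested.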

How the data were processed

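The 6 tables, 1 per sample, were analysed. Per the labels and the study's methods, RNA from NB4 cells was extracted with an RNeasy kit, libraries were made with a TruSeq RNA kit, and reads were quantified with kallisto. The submitters' processing notes also name DESeq2 and hg19 without versions, and the human transcript set is not given in the sources used here. The authors deposited, per transcript, estimated counts and TPM, without a value per gene.

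Transcripts were matched by identifier to GENCODE 29 (GRCh38): 181857 of 196354 (92.6%), with 95.4% to 95.5% of the counts. They were summed to 52992 genes, and estimated counts were rounded. Coordinates are those of GRCh38, not of the authors' build. Genes were filtered with filterByExpr (minimum count 10), which left 18514, and tested with edgeR's quasi-likelihood test (edgeR 4.0.16, R 4.3.3, TMM factors, robust, all 6 samples, group as the only term), with Benjamini-Hochberg adjustment over all tested genes and an FDR of 0.1. The common biological coefficient of variation was 16.6%. CPM values use the TMM-scaled library sizes. SE values were derived from the log2 difference and its F statistic. The scripts were tested on simulated data. Alternatives used DESeq2 1.42.0, limma 3.58.1 on log2(TPM + 1) and log2(TPM + 0.1), other factors, filters and transcript sets, a length offset, a replicate block, and each sample left out. DESeq2 gave no adjusted p for some genes with low counts, such as SDC3, BCAN, CSPG5 and FGF2, and these count as not called. Leaving out both samples apart on the first component, and the crossed block, were added after seeing the data.

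The 9 genes and all lists were chosen with earlier results of these data known. Named are the 9 genes, list genes that passed in any comparison, up to 4 further genes per list with the highest mean TPM, the 5 genes with the highest correlation with HSPG2 and tested genes within 500 kb of it, besides genes said to be named after their values were seen. Intervals cover the spread between samples. No batch is labelled.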

Additional observations from a re-analysis of the deposited data

How the results depend on the processing

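HSPG2 was lower in every alternative, with a log2 difference between -0.99 and -0.83 for sg1, -1.33 and -1.12 for sg5, and -1.13 and -0.98 joined, and AGRN was below 0 in every alternative as well. Whether HSPG2 passed FDR 0.1 did depend on the setting, most of all for sg1, where its adjusted p was just under the threshold. With 2 samples per group, leaving out a sample leaves its group without a spread. A call lost in that way does not show that a single sample carried the difference. The cause was not tested.

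For sg1, HSPG2 did not pass with RLE factors (-0.91), a mean of at least 50 counts (-0.92), TPM in limma with a pseudocount of 1 (-0.85) or 0.1 (-0.94), protein-coding transcripts only (-0.91), unmatched transcripts kept (-0.91) or an FDR of 0.05 (-0.91), and 0 of the 9 genes were then called. For sg5 it did not pass with TPM in limma (-1.18 and -1.33) or unmatched transcripts kept (-1.19), and joined with TPM in limma (-1.01 and -1.13), again with 0 of the 9 called. Leaving out each sample in turn gave log2 differences of -0.99 to -0.83 for sg1, -1.25 to -1.12 for sg5 and -1.11 to -0.98 joined. In this series 0 to 1, 0 to 1 and 0 to 2 of the 9 genes were called, and 1 to 33, 0 to 78, 0 to 8 (sg1 against sg5) and 3 to 193 (joined) of all genes. HSPG2 lost its call for sg1 without LacZ replicate 1 or 2 or sg1 replicate 1 or 2, and for sg5 and joined without LacZ replicate 1 or 2. AGRN was called joined without sg5 replicate 1 (-0.64).

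Same-numbered deviations from the group mean correlated at 0.07 (LacZ and sg1), 0.01 (LacZ and sg5) and -0.21 (sg1 and sg5). The samples apart on the first component carry different replicate numbers, so these values cannot decide whether the numbers pair the samples. With a replicate block, 1, 1, 0 and 3 genes were called for sg1, sg5, sg1 against sg5 and joined, with 0 of the 9 genes, and HSPG2 was at -0.91, -1.19 and -1.05; with the block and a length offset, 1, 1, 0 and 5 genes were called and HSPG2 was at -0.91 and -1.29, again with 0 of the 9 called for sg1 and sg5. A crossed block called 59, 157, 2 and 194 genes, with 2 of the 9 joined.

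Counts of all genes called for sg1, sg5, sg1 against sg5 and joined (7, 18, 1 and 31 as reported) were 116, 201, 5 and 264 with DESeq2, 345, 632, 86 and 701 without the filter, and 424, 787, 215 and 809 without both samples apart on the first component, where LacZ alone gives the spread. Of the 9 genes, 2 (HSPG2 and AGRN) were called with DESeq2 and without the filter for sg5 and joined, and 2 without both of those samples in each comparison with LacZ. A mean of at least 50 counts gave 4 for sg1, 0 for sg1 against sg5 and 19 joined, the fit of only the compared groups 18, 29 and 0, TPM with a pseudocount of 1 gave 4, 9, 2 and 5 and with 0.1 gave 2, 9, 3 and 3, unmatched transcripts kept gave 1, 1, 0 and 4, a length offset gave 2 for sg1 against sg5, and an FDR of 0.05 gave 0 for sg1 against sg5 and 12 joined. Of the list genes, 15, 17, 1 and 20 had an unadjusted p under 0.05, and DESeq2 called 6, 7 and 10 for sg1, sg5 and joined. Joined, MMP2 stayed between -1.05 and -0.81 and ITGA7 between -1.15 and -0.67 over 20 alternatives, and each missed the threshold in 11 of them, leaving out either LacZ sample (MMP2 at an adjusted p of 0.756 and 0.735, ITGA7 of 0.78 and 0.434, edgeR) among them, and ITGA7 also without sg1 replicate 1 (0.13). Of the marker genes, HDC for sg1 missed it in 13 of 21, HDC for sg5 in 6, ITGA2B in 8 and 6, PRG2 in 5 and 4, and EPX for sg5 in 9, with every value below 0.

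The other 5 tested genes were called in no alternative, and their sign changed in some. LAMC1 went to -0.05 (length offset, also with the block), -0.08 and -0.09 (TPM in limma) for sg1, -0.02 (length offset) and -0.01 (TPM) for sg1 against sg5, and 0.00 joined (DESeq2, RLE factors). SDC1 went to 0.05 (length offset) and 0.04 (block and offset) for sg1, and to -0.02 (replicate block), 0.00 (crossed block) and -0.35 (without both samples apart) for sg1 against sg5. SDC3 went to 0.00 (length offset) for sg5. SDC4 went to -0.04 for sg1, 0.09 for sg5 and -0.13 between them without both samples apart, to 0.00 (DESeq2, RLE factors, length offset), 0.01 (replicate block), 0.03 (block and offset) and 0.02 (crossed block) for sg5, and to 0.00 joined (protein-coding only). SRGN went to -0.27, -0.10 and -0.19 without both samples apart. With 1 sample left out in turn, the ranges were -0.27 to 0.50, -0.11 to 0.52, -0.52 to 0.27 and -0.01 to 0.38 for SRGN, -0.62 to 0.35, -0.27 to 0.09, -0.53 to 0.44 and -0.36 to 0.13 for SDC1, -0.24 to 0.39, -0.28 to 0.35, -0.05 to 0.14 and -0.26 to 0.37 for SDC4, in the order sg1, sg5, sg1 against sg5 and joined, -0.11 to 0.09 for SDC3 in sg5, and 0.00 to 0.08 for LAMC1 in sg1 and -0.03 to 0.03 joined. Counts of 0 to 8 for VCAN and NID1 and 11 to 17 for SDC3 limit what can be seen of them.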
